A study of Mus musculus with 3 samples.

Results

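PER and CRY proteins are the repressors of the mammalian circadian clock, and their 5 genes, Per1, Per2, Per3, Cry1 and Cry2, were read in ovaries of mice designed to lose the clock activator BMAL1 in SF-1-expressing cells. Members were chosen by gene name: every non-control probe of the microarray whose gene name was 1 of these 5 was taken, which gave 8 of 41174 probes and 5 of 28090 gene names. Per1 and Per3 had 1 probe each, and Per2, Cry1 and Cry2 had 2 each, here called the brighter and the dimmer probe by their signal. The conditional knockout (cKO) females were Bmal1fxfx and carried Cre recombinase driven from sf-1, and the control females carried the same floxed alleles without Cre, so the groups differ by the Cre transgene as well as by Bmal1. All were 10 weeks old, of the strain C57Bl/6J, kept with 12 h of light and free food, and were killed at ZT12 (lights off) 3.5 days after copulation. RNA of 3 ovaries from 3 cKO mice was pooled, labelled with cy3 and hybridised together with a pool of 3 controls in Cy5, on each of 3 Agilent arrays. The arrays are therefore the replicates (n = 3), each with its own pools. The p-values and intervals from limma mix a probe's spread between arrays with a spread borrowed from all probes tested. The SD beside a mean log2 ratio is that of the 3 arrays alone. On arrays 2 and 3 the number at the end of the Cre name in the genotype label follows the array number, and those pools were assigned by their titles.

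In the clock, BMAL1 pairs with CLOCK or NPAS2, binds E-box sequences and switches on the Per and Cry genes. PER and CRY proteins accumulate, enter the nucleus together and block BMAL1 and CLOCK, which closes a daily feedback loop, and casein kinases and ubiquitin ligases set how long they last. Granulosa and luteal cells of the ovary carry this clock. SF-1, the product of Nr5a1, is a nuclear receptor of steroid-producing cells, so Cre under its promoter is not expected in every cell of a whole ovary, and SF-1 is also present in the pituitary, hypothalamus and adrenal.

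The probes that carry the comparison within each gene are shown first. These are the dimmer probes of Per2, Cry1 and Cry2, 60 bases each, which read their gene apart from the brighter probe.
Per2 dimmer probe: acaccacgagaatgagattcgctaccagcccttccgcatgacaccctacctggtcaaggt
Cry1 dimmer probe: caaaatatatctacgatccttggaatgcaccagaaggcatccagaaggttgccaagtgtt
Cry2 dimmer probe: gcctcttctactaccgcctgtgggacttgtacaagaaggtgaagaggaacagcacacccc
The 8 probes shared no run longer than 8 bases in any of their 28 pairs. They were compared only with one another and not with transcripts, so whether Cry1 and Cry2 probes read each other's gene was not tested. No genome positions of the probes were used here.

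The 250 bases before the annotated start of Cry1, Cry2 and Per1 follow, because these genes are textbook targets of BMAL1 through E-boxes. Sequences are those of RefSeq on GRCm38.p6, on the minus strand for Cry1 and Cry2 and the plus strand for Per1. Capitals mark the E-box CACGTG and its variant CACGTT, which lies on the opposite strand here and so is printed as AACGTG.
Cry1, chr10:85185055-85185304: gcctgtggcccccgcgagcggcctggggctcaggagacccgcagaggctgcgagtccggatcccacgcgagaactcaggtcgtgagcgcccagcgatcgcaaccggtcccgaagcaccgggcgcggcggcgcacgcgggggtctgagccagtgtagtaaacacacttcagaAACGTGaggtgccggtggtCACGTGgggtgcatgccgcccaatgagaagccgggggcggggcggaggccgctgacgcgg
Cry2, chr2:92434070-92434319: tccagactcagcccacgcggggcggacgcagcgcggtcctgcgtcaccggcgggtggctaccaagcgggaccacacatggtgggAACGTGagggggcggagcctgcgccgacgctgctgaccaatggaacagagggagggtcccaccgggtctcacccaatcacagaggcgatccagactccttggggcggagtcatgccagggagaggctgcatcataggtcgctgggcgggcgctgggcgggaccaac
Per1, first of 2 starts, chr11:69098699-69098948: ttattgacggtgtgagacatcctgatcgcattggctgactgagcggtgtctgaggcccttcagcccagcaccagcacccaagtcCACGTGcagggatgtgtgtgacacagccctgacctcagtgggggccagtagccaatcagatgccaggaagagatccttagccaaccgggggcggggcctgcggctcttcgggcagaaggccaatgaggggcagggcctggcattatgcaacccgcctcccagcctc
In Cry1 the E-box began 60 bases and the variant 79 bases before the start. Cry2 held 1 variant, 166 bases before its start, and the first start of Per1 held 1 E-box, also at 166 bases. The window of the other Per1 start held neither the E-box nor the variant. The E-box was present in 7.15% and the variant in 4.68% of 32851 RefSeq promoter windows of 300 bases, which reach from 250 before to 50 after the start. The search on both strands also covered the D-box TTATGTAA (0.938% of windows), the ROR element core TAGGTCA (2.61%), the cAMP response element TGACGTCA (1.79%) and its core TGACG (20.8%), which lies within it. Per3 held the D-box at 205 and at 158 bases before its start, and TGACG was found in Cry1, Cry2 and both Per1 windows. The ROR element core and the full cAMP response element were found in no window searched of Per1, Per3, Cry1 or Cry2. The window of Per2 was not analysed here. A match is a description of the letters in these windows and not of binding.

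The arrays gave 26429 probes whose spots were well above background on every array in at least 1 of the channels, and 7 of the 8 member probes were among them. Spots well above background made up 67.4% to 69.1% in the cKO channel and 62.9% to 65.8% in the control channel, and precision is limited by there being 3 arrays. Dyes were never swapped, and dye and genotype cannot be told apart for any probe. Pearson's r between arrays, taken across probes and so not over independent replicates, was 0.476 (1 and 2), 0.0720 (1 and 3) and -0.214 (2 and 3). Arrays 2 and 3 shared a slide. All 7 luteal, 7 granulosa and 7 oocyte markers were well above background on each array in cKO and control alike, which fits the label ovary. Arntl, the gene of BMAL1, gave log2 ratios of cKO over control of 0.26, 0.10 and -0.28, a mean of 0.03 ± 0.28 (SD, n = 3; limma, adjusted p = 1.000); its only probe may lie outside the deleted part, so it checks neither deletion nor labels.

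Both Cry1 probes and the brighter Cry2 probe stood above the controls on every array. The means of Per1 and Per2 lay near 0, and Per3 was too dim to test. On single arrays Per1 ran from -0.62 to 0.58 and the dimmer Per2 probe from -0.48 to 0.34. The mean log2 ratio was 1.66 for the brighter Cry1 probe, or 3.15-fold, and 1.36 for the brighter Cry2 probe, or 2.57-fold. Of the 7 member probes tested, 0 passed the threshold of 0.05 on p adjusted over all 26429 probes (limma, Benjamini-Hochberg); 0.223% of all probes did, 30 higher and 29 lower. The dimmer Cry2 probe passed the filter only through its cKO spots, so its direction is no support and it is left out of the counts that follow. At an unadjusted p under 0.05, 3 of the other probes were higher, both Cry1 probes and the brighter Cry2 probe (3 also with spots of both channels required above background), against 2.77% of all probes, and 0 were lower, against 2.55% (5.32% in either direction). The same 3 had a mean log2 ratio of 1 or more, against 1.26% of all probes. These 3 and the brighter Per2 probe, 4 in all, were above 0 on all 3 arrays (11.6% of all probes were). In whole tissue, more RNA per cell and more cells that hold it cannot be told apart.

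**Figure D1:**
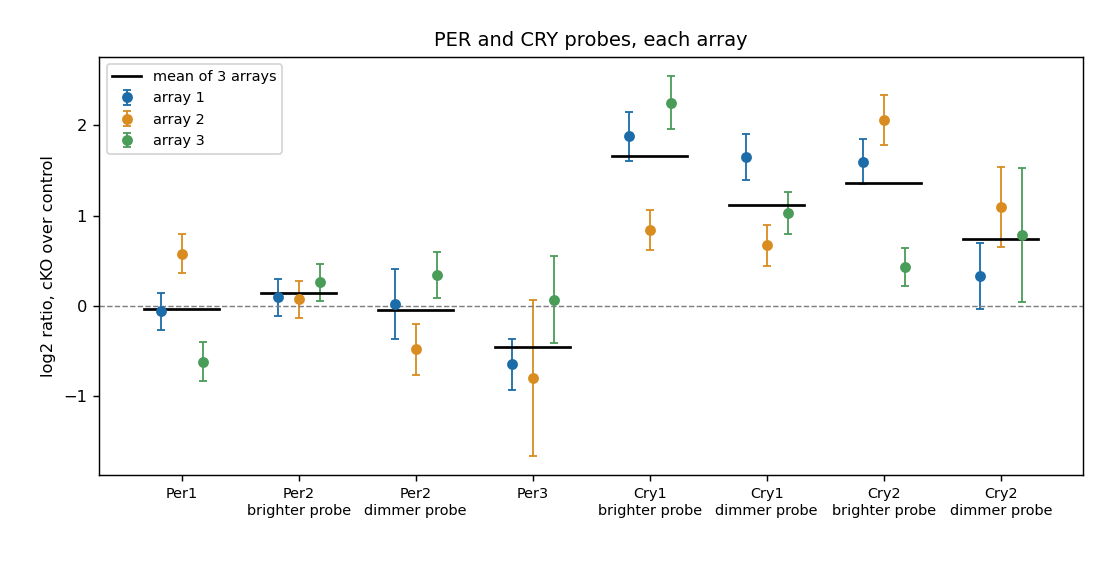
Log2 ratio of cKO over control (vertical axis) for the 8 member probes (horizontal axis). Points are the 3 arrays, bars the scanner software's error of each spot on the log2 scale, and black lines the mean of 3 arrays. The 4 Cry probes lie above 0 on all arrays, as do 11.6% of all probes tested. The dimmer Cry2 probe passed the filter only through its cKO spots, so its direction is no support. Per1 lies at -0.06, 0.58 and -0.62.

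Cry1 encodes a cryptochrome that binds the BMAL1 and CLOCK complex and is the stronger brake on it in many tissues. Signals below are processed intensities, corrected for background and dye within an array by the authors, in arbitrary units. The brighter Cry1 probe gave 800.1, 579 and 1396 in the cKO pools of arrays 1, 2 and 3 and 218, 323 and 293 in the control pools. Every cKO pool was thus brighter than every control pool, and array 3 held the brightest cKO pool. Its log2 ratios were 1.88, 0.84 and 2.25 (spot errors 0.27, 0.22 and 0.29), a mean of 1.66 ± 0.73 (SD, n = 3), with an interval of 0.87 to 2.45 (confidence level 0.95) and an adjusted p of 0.225 by limma. Array 2, with the lowest ratio, stood apart by more than the spot errors. Of all probes tested, 0.719%, 6.76% and 0.356% had a higher ratio on arrays 1, 2 and 3. Without replicate 2 the mean was 2.06 and passed (limma, adjusted p = 3.6e-04), and with all 3 arrays it passed at 1.71 with the slide as a block (adjusted p = 0.0070). In these fits limma gave all member probes nearly the same standard error (0.434 without replicate 2), so probes borrowed their spread from all others. Arrays 2 and 3, which share a slide, gave a mean of 1.55 (adjusted p = 0.190). Over all 14 alternatives the adjusted p ran from 3.6e-04 to 0.681.

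The dimmer Cry1 probe, shown above, gave 528, 251 and 577 in the cKO pools and 168, 157 and 283 in the control pools. On each array the cKO pool was the brighter, although the cKO pool of array 2 was dimmer than the control pool of array 3. Its log2 ratios were 1.65, 0.67 and 1.03, a mean of 1.12 ± 0.49 (n = 3; interval 0.46 to 1.77; limma, adjusted p = 0.370). Both Cry1 probes were thus lowest on array 2. They differed by 0.54 ± 0.59 (brighter minus dimmer, n = 3), mostly through array 3, where the difference was 1.22 against 0.23 and 0.17 on arrays 1 and 2. The exact sign-flip test over 3 arrays cannot go below 0.25, so no test of this difference was made.

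Cry2 encodes the other cryptochrome, a repressor that also restrains nuclear receptors and other transcription factors. The brighter Cry2 probe gave 2792, 2623 and 2538 in the cKO pools and 924, 631 and 1879 in the control pools. The cKO pools were all above the control pools, of which that of array 3 was the brightest. Its log2 ratios were 1.60, 2.06 and 0.43 (spot errors 0.25, 0.28 and 0.21), a mean of 1.36 ± 0.84 (n = 3; interval 0.50 to 2.22; limma, adjusted p = 0.431). Array 3 stood below the other arrays by more than the spot errors, and 25.8% of all probes had a higher ratio there, against 1.14% on array 1 and 0.299% on array 2. Without replicate 3 the mean was 1.83 and without replicate 2 it was 1.01, neither of which passed (limma, adjusted p = 0.0760 and 0.538). On that shared slide it was 1.24 (adjusted p = 0.746).

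The array order of the brighter Cry2 probe, array 2 highest and array 3 lowest, was also that of several cell marker medians. The dimmer Cry2 probe was lowest on array 1. Theca (0.01, 0.53 and -0.01 on arrays 1 to 3) and endothelium (-0.05, 0.22 and -0.18) markers had the order of the brighter Cry2 probe. Only 2 of 3 theca markers were tested, and their medians on arrays 1 and 3 nearly tied. Luteal, granulosa, oocyte, ovarian surface epithelium and oviduct markers had other orders. Smooth muscle, macrophage and fibroblast markers shared the order of the brighter Cry2 probe. The median log2 ratio of 5 of 5 smooth muscle markers was 0.29, 1.16 and -1.22 on arrays 1 to 3, that of 7 of 7 macrophage markers 0.80, 1.00 and -0.14, and that of 5 of 5 fibroblast markers 0.59, 0.95 and 0.02. Their summed signals ran from 57915 to 127414 in cKO and 54388 to 130397 in control pools for smooth muscle, from 81652 to 164498 and 31882 to 60061 for macrophages, and from 105309 to 146054 and 67142 to 102503 for fibroblasts. None of these markers was at 0, all being well above background in both channels. Their part in the values of the brighter Cry2 probe was not tested.

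The dimmer Cry2 probe had control spots that were not well above background on any array. It gave 35.5, 49.6 and 32.3 in the cKO pools and 28.2, 23.2 and 18.7 in the control pools. The cKO pool was the brighter on each array, by 0.33, 1.10 and 0.79 on the log2 scale, with spot errors of 0.37, 0.44 and 0.74. Its mean cKO signal was 1.45-fold that of a floor, the lowest control signal well above background or the measured one where higher. This value is per channel, without balanced dye swaps and so open to dye bias. It carries no error and, as the probe passed the filter only through cKO spots, sets no bound on Cry2. The ratio of this probe did not pass (limma, adjusted p = 0.723). With normexp background correction and loess its mean was 0.11 in place of 0.74, so the size of this ratio rests on how dim spots were corrected. The brighter probe gave 1.42 in that setting, and the difference between both probes was 0.62 ± 0.86 (n = 3) with the scanner ratio and 1.31 with normexp and loess.

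**Figure D2:**
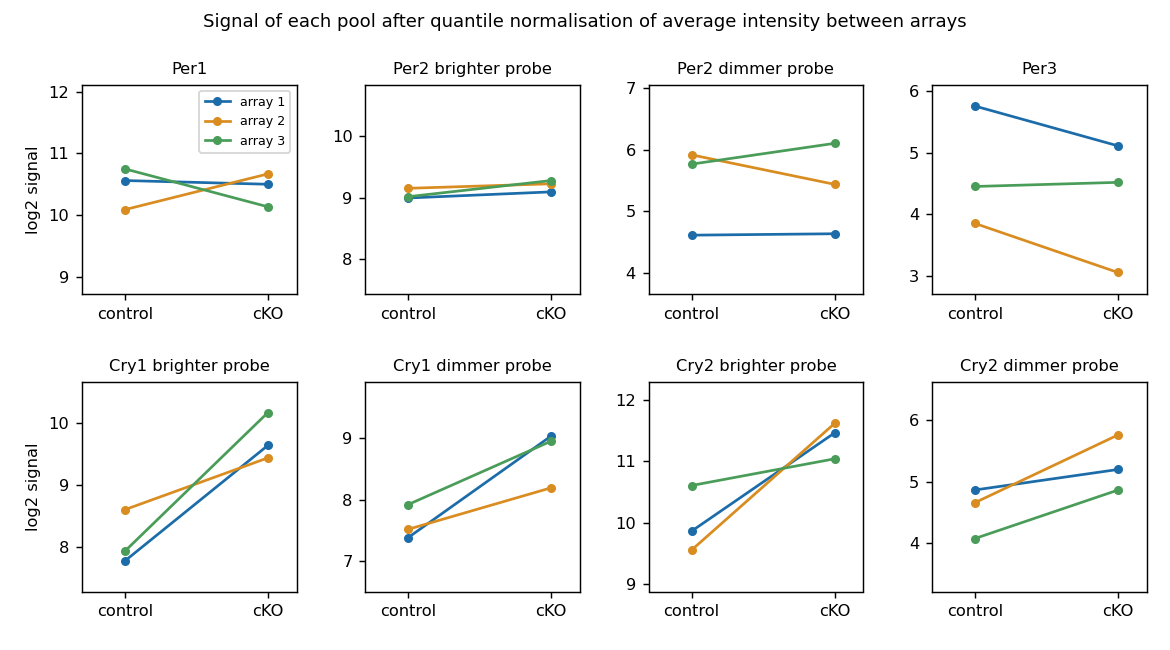
Log2 signal (vertical axis) of the control and cKO pool of each array (joined points, 1 colour an array) for each member probe, after average intensities were made alike between arrays by quantiles. Axes have the same height in every panel; the 3 cKO pools lie above the 3 control pools for both Cry1 probes and the brighter Cry2 probe.

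After quantile normalisation of average intensities, which allows pools to be compared between arrays, 3 member probes had cKO pools that did not overlap the control pools, both Cry1 probes and the brighter Cry2 probe; 5.36% of all probes tested had all cKO pools above and 4.91% all below. For the brighter Cry1 probe the cKO pools had a mean log2 signal of 9.76 ± 0.38 and the controls 8.10 ± 0.44 (SD, n = 3 pools each). For the brighter Cry2 probe they had 11.37 ± 0.30 and 10.01 ± 0.54, the control pools being the more spread.

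Per1 encodes the PER protein that responds quickly to light and hormonal signals in many tissues. Its probe gave 1432, 1366 and 1351 in the cKO pools and 1493, 913 and 2070.1 in the control pools. On this scale the cKO pools lay within the range of the controls. After quantile normalisation between arrays the cKO pools were at 10.50, 10.67 and 10.13 and the controls at 10.56, 10.09 and 10.75 in log2 signal, so the groups overlapped and were similarly spread (SD 0.27 and 0.34). The log2 ratios were -0.06, 0.58 and -0.62 (spot errors 0.20, 0.21 and 0.21), so the arrays went in opposite directions by more than the spot errors. The mean was -0.03 ± 0.60 (n = 3; interval -0.74 to 0.68, or 0.597-fold to 1.60-fold; limma, adjusted p = 1.000), and its sign turned in 5 of 14 alternatives. The smooth muscle, macrophage, fibroblast, theca and endothelium medians given above had the same order over the arrays. All of these but the fibroblast medians also changed sign between arrays 2 and 3, the theca median reaching only -0.01 on array 3. The part of these cell types in the Per1 values was not tested.

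Per2 encodes the PER protein whose loss most disturbs rhythm in mice. Its brighter probe, which had the smallest SD of the ratio among the 8 member probes, gave 546, 499 and 751 in the cKO pools and 509, 474 and 626 in the control pools. Ratios were 0.10, 0.07 and 0.26 on the log2 scale, all above 0 and near the spot errors of 0.20, 0.20 and 0.21. The mean of 0.14 ± 0.10 (n = 3) had an interval of -0.38 to 0.67, so differences beyond 1.59-fold higher or 0.769-fold lie outside it (limma, adjusted p = 1.000). With normexp and loess the mean was 0.03.

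The dimmer Per2 probe, shown above, gave 24.1, 39.0 and 77.8 in the cKO pools and 23.7, 54.3 and 61.6 in the control pools. Its spots were well above background for cKO and control on each array. The log2 ratios of 0.02, -0.48 and 0.34 had a mean of -0.04 ± 0.41 (n = 3; interval -0.66 to 0.58; limma, adjusted p = 1.000). Brighter minus dimmer was 0.18 ± 0.33. Both Per2 probes had means near 0, and their ratios had the same sign on 2 of 3 arrays.

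Per3, a PER gene with a small part in rhythm generation, was read by 1 probe, well above background on 2 arrays in the cKO channel and on 1 in the control channel. It failed the filter and was not tested among the probes above. The cKO pools gave 33.8, 8.02 and 25.5 and the control pools 52.8, 13.9 and 24.3. Its log2 ratios were -0.65, -0.80 and 0.07 with spot errors of 0.29, 0.86 and 0.48, so on arrays 2 and 3 they lay within the spot error of 0. On array 1 the ratio was larger than its spot error. At this signal the Per3 ratios were too uncertain to read as a difference or as its absence.

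The remaining genes of the clock were read by the brightest probe of each that passed the filter, 17901 genes in all. Of 16 core clock genes 14 were tested, Arntl2 and Rorb being too dim. With p-values adjusted over probes 0 passed, and adjusted over genes 1 passed (limma; 0.302% of all genes did): Nr1d2, which encodes the repressor REV-ERB beta, fell to -2.17 ± 0.37 (n = 3; adjusted p = 0.0435, against 0.0507 over probes). At an unadjusted p under 0.05, 4 of the 14 were higher and 3 lower, against 2.98% and 3.01% of all genes. By size the next were Npas2, a partner of BMAL1, at 2.13 ± 0.59 (limma, adjusted p = 0.0735 over genes) and Nr1d1, the gene of REV-ERB alpha, at -1.79 ± 0.49 (adjusted p = 0.103), whose other probes both gave -0.54. The median of the core list was -0.14, against -0.02 over all genes and 0.75 over the 4 tested members. That last median describes no single member, as it lies between Per1 and Per2 (-0.03 and 0.14) and Cry2 and Cry1 (1.36 and 1.66).

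REV-ERB proteins repress, and ROR proteins activate, genes with a ROR element, a set that in textbooks includes Arntl, Npas2, Nfil3 and Cry1. Beside the Cry1 values, Nr1d1 gave -1.41, -1.61 and -2.34 by its brightest probe (its others had means of -0.54) and Nr1d2 -2.33, -2.43 and -1.75 on arrays 1 to 3. Arntl gave 0.26, 0.10 and -0.28, and Npas2 gave 2.80, 1.67 and 1.92. Nfil3, a repressor of D-box genes, gave 1.24, 0.99 and 0.71, and Rora 1.52, 1.08 and 0.99. Genes switched on through E-boxes besides Per and Cry include Dbp, an activator at D-boxes, which gave -1.50, -1.50 and -1.55. None of Nfil3, Rora and Dbp passed (limma), and these 3 were named after their values were seen. The ROR element core was not found in the Cry1 window searched. Whether REV-ERB, ROR or E-box binding has a part in any of these values was not tested. All comparisons here share the same 3 arrays.

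**Figure D3:**
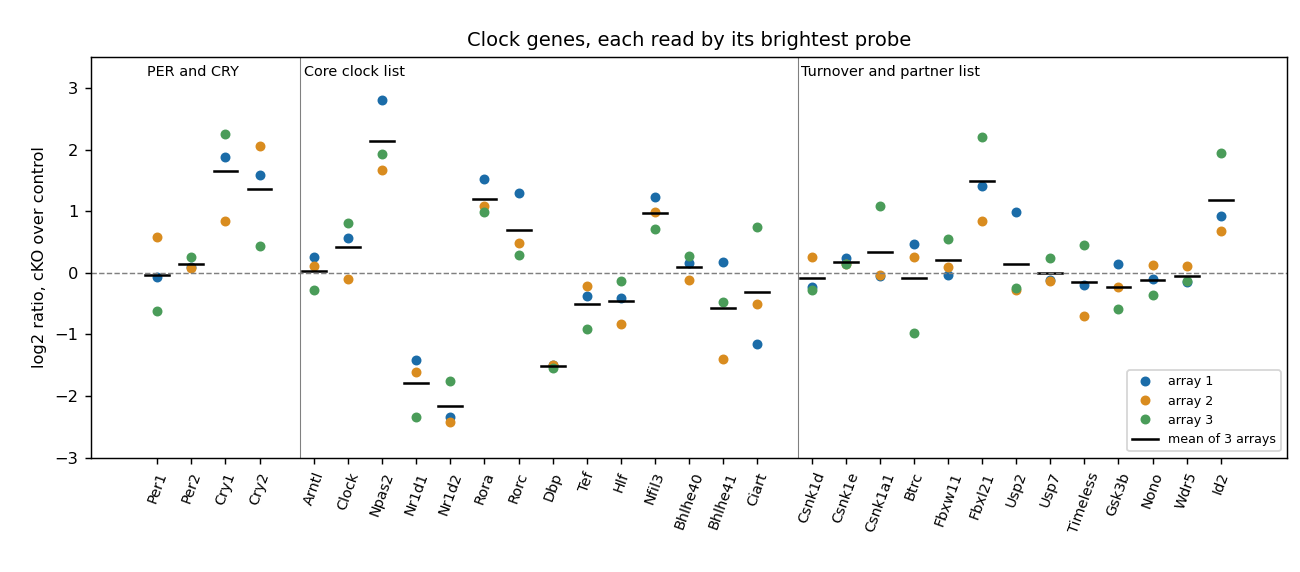
Log2 ratio of cKO over control (vertical axis) for 4 tested members, 14 core clock genes and all but 1 of the turnover and partner genes, each read by its brightest probe past the filter. Points are arrays and black lines their mean; Cry1 and Cry2 lie above 0 on all arrays, Nr1d1, Nr1d2 and Dbp below.

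Genes for the turnover and partners of PER and CRY were all 14 tested, and 0 passed (limma); at an unadjusted p under 0.05, 2 were higher and 0 lower, against 2.98% and 3.01% of all genes. Fbxl21, an F-box protein that marks CRY for ubiquitin, gave 1.41, 0.85 and 2.20, a mean of 1.48 ± 0.68 (adjusted p = 0.229), with another probe at 0.91. Id2, an inhibitor of basic helix-loop-helix factors, was at 1.18 ± 0.67 and casein kinase Csnk1a1 at 0.33 ± 0.66, the latter through array 3 alone (1.09, against -0.05 and -0.04). The kinases of PER, Csnk1d and Csnk1e, were at -0.08 ± 0.29 and 0.18 ± 0.06. The list's median was 0.07. Csnk1d and Csnk1e were named for their known roles, with their values in view.

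Genes nearest to each member over the 3 arrays, by Euclidean distance of log2 ratios among 11691 other genes well above background in both channels, were Serpinb8 (distance 0.26) and Ly75 (0.29) for Cry1 and Nr6a1 (0.43) and Gramd1a (0.61) for Cry2. Nr6a1 gave 1.89, 2.25 and 0.18, and Serpinb8 gave 2.02, 1.06 and 2.23. For Per1 they were Mark3 and Rtel1 (0.04 and 0.05) and for Per2 St13 and Terf2 (0.04 and 0.04), where many genes lie near 0. This likeness rests on 3 values a gene.

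**Figure D4:**
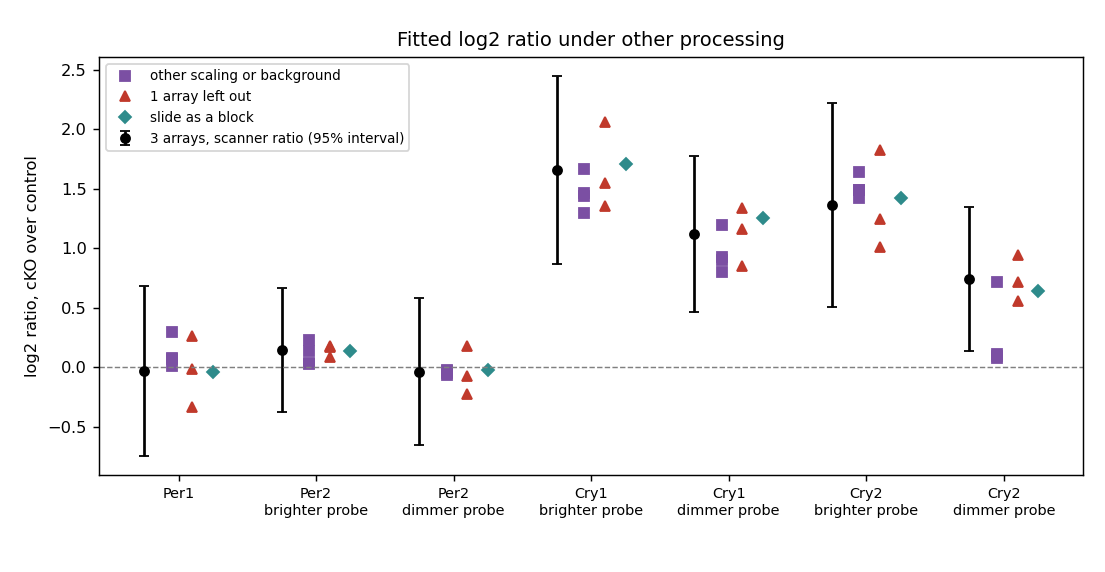
Fitted log2 ratio of cKO over control (vertical axis) for the 7 tested member probes: black points are the fit on 3 arrays with its interval at a confidence level of 0.95, coloured points other scalings or background corrections, fits with 1 array left out and the slide as a block. The brighter Cry1 probe lies between 1.30 and 2.06 and the brighter Cry2 probe between 1.01 and 1.83, while Per1 has values on both sides of 0.

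Across 14 alternatives both brighter Cry probes kept a mean above 0, from 1.30 to 2.06 for Cry1 and from 1.01 to 1.83 for Cry2, as the plot of fitted ratios shows. The dimmer Cry1 probe ran from 0.80 to 1.34 over 13 alternatives and the dimmer Cry2 probe from 0.08 to 0.94 over 12. The brighter Per2 probe ran from 0.03 to 0.23.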

How the data were processed

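Total RNA of ovary pools was labelled with Agilent's low input amplification kit and measured on 3 arrays, per the labels' protocols. The deposited log10 ratios of red (control) over green (cKO) and processed intensities come from Agilent Feature Extraction 9.1.3.1, with local background, detrending and LOWESS dye normalisation, per the file headers; the error of each ratio, used as a deposited score, comes from the same software. The series value table held the same log10 ratios (largest difference 0 over 45018 features).

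Log2 ratios of cKO over control are the log10 ratios with the sign turned, times 3.32. Control and outlier spots (13, 4 and 0 on arrays 1 to 3; none of a member) were left out and replicate spots averaged. Ratios were tested against 0 with limma 3.58.1 in R 4.3.3 (lmFit, eBayes, intercept only, 2-sided) over all probes kept, adjusted by Benjamini-Hochberg, and the fit was tested on simulated data. Alternatives were normexp (offset 50) with loess or median centring, loess alone, scaled arrays, filters on dim probes, 1 probe a gene, the slide as a fixed term, channels apart, an intensity trend, outlier spots kept and arrays left out. Named were all members, Arntl, the 3 largest in each clock list and the 2 genes nearest to each member; 8 further clock genes (Nfil3, Rora, Dbp, Csnk1d, Csnk1e, Bhlhe40, Bhlhe41 and Ciart) were named with their values in view. The values of 1 gene of the turnover list are not reported here, and it is counted in that list. Members and lists were chosen with earlier results of these data known.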

Additional observations from a re-analysis of the deposited data

How the results depend on the processing

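Of 94 values of member probes under 14 alternatives, 86 kept their direction and side of the threshold, 2 passed it and 6 changed sign. Filters, the trend, outlier spots and channels apart reused the same mean ratio, so its direction could not change there. The 2 that passed were the brighter Cry1 probe with the slide as a block (1.71) and without replicate 2 (2.06; range over the 3 left-out arrays 1.36 to 2.06), so that 1 member probe was called in each of these fits. Per1 was 0.073 with normexp and loess, 0.079 with loess alone, 0.29 with normexp and median centring, 0.013 with arrays scaled alike and -0.34 to 0.26 with 1 array left out, and the dimmer Per2 probe 0.18 without replicate 2 (-0.23 to 0.18 with 1 array left out). Median centring moved the median of all probes by 0.12. The difference between Cry2 probes was 1.55 there. Over all probes, 30 were higher and 29 lower. Normexp and loess gave 0 and 1 (3061 at an unadjusted p under 0.05 by limma). Median centring gave 0 and 0 (3949), and no filter on dim probes 0 and 0 (2658). Scaled arrays gave 8 and 2 (80.0% higher, against 50.8%). The slide as a block gave 170 and 117, channels apart 63 and 66, and an intensity trend 45 and 49. Leaving out 1 array gave 41 to 197 and 52 to 158. Core clock genes called numbered 0; 1 was called with loess alone, with both channels above background and over genes, 2 with a trend, 4 with the slide as a block or channels apart and 1 to 4 with 1 array left out. Turnover genes called numbered 1 with the slide as a block and 0 to 1 with 1 array left out. The cause was not tested. The ratios are already paired by array; taken apart without that pairing, the channels gave the counts above and 0 member probes called. Signal near background limits Per3 and the dimmer Cry2 probe.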

Other observations

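The brighter probes of Cry1 and Cry2 ran in opposite order over the highest and lowest arrays. The brighter Cry1 probe was highest on array 3 (2.25) and lowest on array 2 (0.84), and the brighter Cry2 probe was highest on array 2 (2.06) and lowest on array 3 (0.43). Fbxl21 (1.41, 0.85 and 2.20) and Id2 (0.92, 0.68 and 1.94) had the array order of the brighter Cry1 probe. The dimmer Cry1 probe did not (1.65, 0.67 and 1.03), and the dimmer Cry2 probe (0.33, 1.10 and 0.79) was lowest on array 1. This order was noticed in the values and not tested, and with 3 arrays any order of 2 genes is shared by many others.

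Among the circadian repressors outside the PER and CRY families, Bhlhe40, whose product competes for E-boxes, was at 0.10 ± 0.20 (n = 3), Bhlhe41 at -0.57 ± 0.79 and Ciart, the repressor also known as CHRONO, at -0.31 ± 0.96, with -1.16, -0.51 and 0.74 on arrays 1 to 3. None passed (limma), and each had values on both sides of 0; they were named with their values in view.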
